A study of Mus musculus with 8 samples.

Results

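Fibroadipogenic progenitors are the connective tissue cells that lie between the fibers of skeletal muscle, and they are commonly sorted by proteins on their surface. The transcripts of 10 such surface and other non-matrix markers, Pdgfra, Ddr2, Axl, Thy1, Ly6a, Gas1, Fap, Cd248, Gsn and Islr, were followed in RNA of activated muscle stem cells (ASCs), which are muscle stem cells that have left quiescence after injury. The genes were chosen by name as markers of these progenitors that encode no matrix protein, and all 10 were among the 18877 gene symbols of the table. RNA was sequenced from 4 wild-type and 4 mfn2-/- libraries, the latter from mice targeted in the gene of mitofusin 2, a fusion protein of the outer mitochondrial membrane. Mice of both genotypes carried the mitochondrial fluorescent protein mito-Dendra2 under control of Pax7-CreERT2, a recombinase made in cells that express Pax7 and active when tamoxifen is given. Both received tamoxifen at 75 mg/kg daily for 5 days and an injection of 50 µl of 1.2% BaCl2, which destroys muscle fibers, into the tibialis anterior. Living cells that were CD34-negative and Dendra2-positive were sorted 2 days after injury. Per the study, mfn2-/- mice carried a conditional Mfn2 allele that this recombinase deletes, so that the deletion was limited to cells that had expressed Pax7 and their descendants. The recombinase was also active in wild-type mice, and the Dendra2 gate was meant to select cells that it had reached. The purity of the sorted cells was not tested here. The labels give neither strain nor age, and do not say whether each library came from its own animal, so p-values measure the spread between these libraries.

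Fibroadipogenic progenitors support the repair of muscle after injury, and can give rise to fibroblasts and fat cells. PDGFRA, the receptor tyrosine kinase for platelet-derived growth factors that is the usual surface marker for sorting them, passes signals for growth and migration into the cell. None of the 10 genes belongs to these cells alone: gelsolin and AXL, for example, are made by many cell types.

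In the mfn2-/- libraries most of these markers were lower than in the wild-type libraries, but by very unequal amounts. Pdgfra, Islr, Fap and Cd248 retained between 1.26% and 7.76% of their wild-type mean, Thy1 20.5%, Gsn 29.9% and Ddr2 47.9%, and these 7 genes fell in the test over all genes. Gas1 and Axl had means at 48.9% and 81.6% of wild-type and Ly6a at 295%, and none of these 3 passed the test. The test was limma on log2(value + 1), in which values are normalized reads (reads of a gene divided by a scaling factor of the library), with Benjamini-Hochberg adjustment over 11754 genes and a threshold of 0.05. Over all genes tested 10.4% were called, 6.36% lower and 3.99% higher. Count-based tests of the recovered reads called 7 members lower with edgeR and 7 with DESeq2, where 5.59% and 9.27% of all genes were called lower. The groups did not overlap for 8 members, all lower in mfn2-/-, whereas 12.2% of all genes were separated in that direction and 7.36% in the other. The median log2 change was -2.02 over the 10 members and -0.16 over all genes tested. In bulk RNA, fewer cells of a type and less RNA per cell cannot be told apart.

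Depth, the labels and other cell types were examined before single genes. The libraries held 1880464 to 7508215 reads assigned to genes, so that 1 read was worth 0.534 to 2.27 normalized reads, and totals did not separate the groups (exact permutation p = 0.943, two-sided, n = 4 per group). Library mfn2-/- replicate 4 stood apart, with reads in 9646 genes against 12613 to 15270 in the others. Mfn2 was lower in all 4 mfn2-/- libraries (229 ± 19.98 normalized reads in wild-type libraries against 126 ± 31.4 in mfn2-/-, mean ± SD, n = 4 each), but was not called by limma (log2 change -0.88, SE 0.30, adjusted p = 0.0848). Each genotype held 2 libraries with reads from 4 Y-linked genes and 2 with 0 such reads (replicates 1 and 2 of wild-type, replicates 3 and 4 of mfn2-/-). Pax7, the transcription factor of muscle stem cells, ranged from 582 to 803 normalized reads over the 8 libraries, and Myf5 from 176 to 258. Although the sort was for CD34-negative cells, Cd34 transcripts stood at 1415 to 1992 normalized reads in wild-type libraries, and at 359 to 700.02 in mfn2-/- libraries (limma log2 change -1.90, adjusted p = 0.000242). Hif1a, the hypoxia-inducible factor on which the study turns, rose from 812 to 2887 normalized reads (1.85, adjusted p = 7.97e-05).

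The sequence before the start of 4 members is shown because these genes cover the range of responses, from Pdgfra and Islr, which fell the most, through Gsn to Axl, which was not called. Each run holds the 250 bases upstream of a RefSeq gene start in GRCm38.p6, written 5′ to 3′ on the strand of the gene, and capitals mark a match to a searched motif. The windows are chr5:75152001-75152250 on the plus strand for Pdgfra, chr9:58158555-58158804 on the minus strand for Islr, chr2:35256109-35256358 on the plus strand for the first of 3 starts of Gsn, and chr7:25788734-25788983 on the minus strand for Axl.
Pdgfra: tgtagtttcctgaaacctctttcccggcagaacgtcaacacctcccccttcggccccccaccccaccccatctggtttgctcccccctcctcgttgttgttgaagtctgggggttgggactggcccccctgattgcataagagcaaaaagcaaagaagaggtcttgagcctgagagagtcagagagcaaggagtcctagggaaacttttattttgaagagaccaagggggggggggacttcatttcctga
Islr: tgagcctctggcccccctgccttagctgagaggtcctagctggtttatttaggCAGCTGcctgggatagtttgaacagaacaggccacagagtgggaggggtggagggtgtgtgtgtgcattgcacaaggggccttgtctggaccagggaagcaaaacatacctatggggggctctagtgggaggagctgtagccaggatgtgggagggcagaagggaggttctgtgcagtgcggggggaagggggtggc
Gsn: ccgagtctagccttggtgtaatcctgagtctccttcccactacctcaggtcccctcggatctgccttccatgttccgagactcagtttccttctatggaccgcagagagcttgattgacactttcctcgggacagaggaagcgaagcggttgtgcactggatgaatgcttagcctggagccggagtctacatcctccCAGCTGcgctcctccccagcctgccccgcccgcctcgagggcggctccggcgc
Axl: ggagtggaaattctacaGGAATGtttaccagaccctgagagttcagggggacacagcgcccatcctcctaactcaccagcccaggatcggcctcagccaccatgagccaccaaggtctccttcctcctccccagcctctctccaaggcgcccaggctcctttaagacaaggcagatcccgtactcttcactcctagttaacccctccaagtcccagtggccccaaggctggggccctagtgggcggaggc

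The capitals in Islr and Gsn mark CAGCTG, an E-box of the kind bound by MyoD, which lay 197 and 53 bases before the start. In Axl they mark GGAATG, the core bound by TEAD factors, 233 bases before the start. Of 7 motifs searched on both strands, the hypoxia response cores ACGTG and GCGTG, the AP-1 site TGANTCA and the GLI core CCACCCA had no match in the 8 windows of the 6 members in the table (Pdgfra, Ddr2, Axl, Gas1, Gsn and Islr), while TATAAA matched in Ddr2 and CAGCTG also at the second start of Gsn. No 2 matches overlapped. Among all 32851 windows of this length, CAGCTG occurred in 13.0%, GGAATG in 12.6%, TATAAA in 12.4%, TGANTCA in 6.75%, CCACCCA in 8.11%, ACGTG in 16.6% and GCGTG in 28.2%. Fap, Thy1, Ly6a and Cd248 had no entry.

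**Figure D1:**
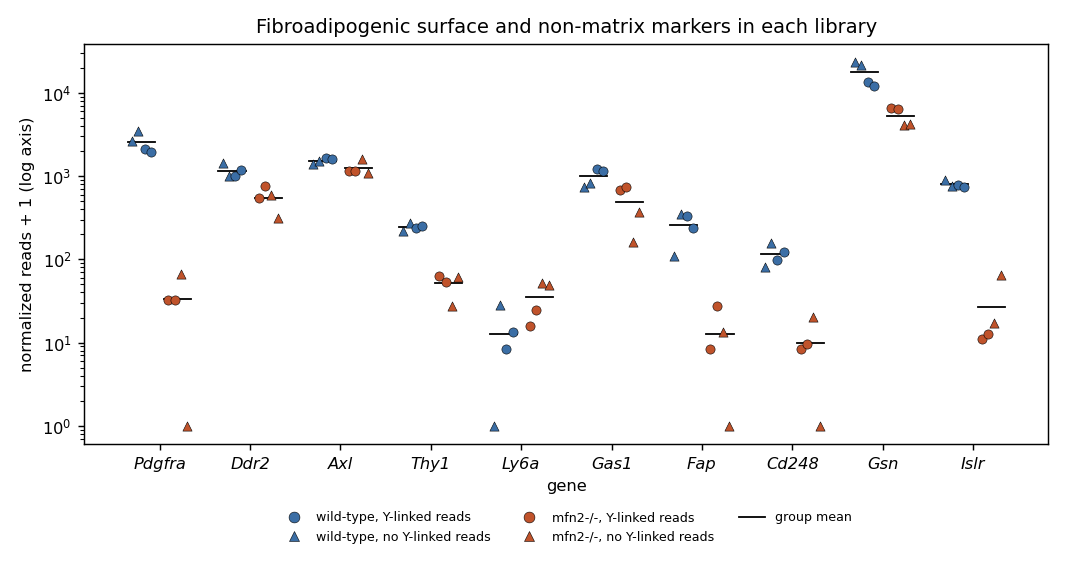
Normalized reads plus 1 of the 10 genes in each library, on a log axis, with wild-type in blue and mfn2-/- in red, circles for libraries with and triangles for libraries without Y-linked reads, and a bar at each mean of 4. The groups are separated for 8 genes and overlap for Axl and Ly6a, and points at the bottom are libraries with 0 reads.

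Among the receptor tyrosine kinases, Pdgfra had the largest decrease. Wild-type replicates 1 to 4 gave 2618, 3475, 2112 and 1919 normalized reads of Pdgfra, and mfn2-/- replicates 1 to 4 gave 31.3, 31.6, 64.8 and 0. No mfn2-/- library came near the wild-type range, and the 0 in replicate 4 allows up to 5.50 normalized reads at that depth by counting error alone (3 reads). The mean was 79.2-fold lower, and the log2 change was -7.25 (SE 0.96, 95% interval -9.32 to -5.17, adjusted p = 0.000405). Without mfn2-/- replicate 4 the change was -5.91 (adjusted p = 6.95e-08), beside -5.88 for Islr, -4.01 for Fap and -3.24 for Cd248 without the same library. Pdgfra lies on chromosome 5, 75152292 to 75198215, plus strand (GENCODE M21, GRCm38), and its exons share bases with Gm42802 and Gm42803 on the opposite strand and with Mir7025 on the same strand.

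DDR2, a receptor kinase for fibrillar collagen, was reduced far less. Ddr2 stood at 1424, 993, 1006 and 1178 normalized reads in wild-type libraries, and at 543, 751, 595 and 315 in mfn2-/- libraries. All mfn2-/- values were below all wild-type values, with the smallest gap between wild-type replicate 2 and mfn2-/- replicate 2. The log2 change was -1.11 (SE 0.26, 95% interval -1.67 to -0.56, adjusted p = 0.0151), a 2.09-fold difference of the means. Without the intensity trend of limma this call was lost (adjusted p = 0.107). Ddr2 lies on chromosome 1, 169972307 to 170110762, minus strand, and shares exon bases with 3110045C21Rik on the opposite strand.

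AXL is the receptor of the TAM family whose ligand is GAS6 and which takes part in the uptake of dying cells. Its transcript gave 1380, 1499, 1655 and 1582 normalized reads in wild-type libraries, and 1148, 1147, 1614 and 1079 in mfn2-/- libraries. Replicate 3 of mfn2-/- lay within the wild-type range while the other 3 lay under it. The log2 change was -0.31 (SE 0.18, 95% interval -0.70 to 0.08, adjusted p = 0.323), so that a decrease of Axl by more than 0.70 on the log2 scale lay outside the interval. Axl lies on chromosome 7, 25757273 to 25788705, minus strand.

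The relatives and ligands of these receptors were examined from lists. Of the 6 other genes of the PDGF pathway, 2 fell and 0 rose. Pdgfrb, the second PDGF receptor and also a mural cell marker, went from 583 ± 60.9 to 73.8 ± 16.1 normalized reads (by -2.99 on the log2 scale, SE 0.28, adjusted p = 2.03e-05), and Pdgfrl, which encodes a related secreted protein, from 204 ± 61.3 to 24.5 ± 25.6 (-4.12, adjusted p = 0.0274). The ligand genes Pdgfa, Pdgfb, Pdgfc and Pdgfd had wild-type means of 9.87 to 81.9 normalized reads and were not called. None of the 4 other TAM genes was called: the ligand gene Gas6 stood at 706 ± 88.2 in wild-type and 946 ± 51.7 in mfn2-/- libraries (0.43, adjusted p = 0.150), Pros1 at 622 ± 127 and 697 ± 92.4, Mertk at 177 ± 95.7 and 70.5 ± 31.2, and Tyro3 at 18.1 ± 18.2 and 7.51 ± 9.51. Ddr1, the collagen receptor kinase related to Ddr2, was not called either (0.56, adjusted p = 0.322).

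Thy1, Ly6a and Gas1 encode proteins held to the membrane by a glycosylphosphatidylinositol (GPI) anchor, and 1 of these 3 genes passed the test. Thy1, which encodes the fibroblast and neuronal surface protein CD90, gave 218, 269, 239 and 254 normalized reads in wild-type libraries, and 62.0, 52.1, 26.5 and 60.5 in mfn2-/- libraries. The wild-type values lay close together, and the highest mfn2-/- value was far below them. Thy1 fell by 2.33 on the log2 scale (SE 0.41, 95% interval -3.21 to -1.45, adjusted p = 0.00267), with means 4.87-fold apart. It lies on chromosome 9, 44043384 to 44048579, plus strand.

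Ly6a encodes SCA-1, a surface antigen much used to sort these progenitors in mice, and was the member with the fewest reads in wild-type cells. Its values were 0, 27.0, 7.35 and 12.3 normalized reads in wild-type libraries, and 14.7, 23.7, 51.6 and 47.6 in mfn2-/- libraries, from between 0 and 70 reads. The groups overlapped, and the 0 in wild-type replicate 1 allows up to 6.82 normalized reads by counting error. A difference was not called by limma (log2 change 2.08, SE 1.19, 95% interval -0.49 to 4.65, adjusted p = 0.309), and without wild-type replicate 1 the change was 1.11 (adjusted p = 0.517). Ly6a lies on chromosome 15, 74994877 to 74998031, minus strand, within a family of similar genes among which reads may be split. Its relatives Ly6c1 (29.2 ± 23.7 and 35.2 ± 10.6 normalized reads) and Ly6e (69.7 ± 31.3 and 70.3 ± 56.9) were not called.

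Gas1, a GPI-anchored co-receptor for Hedgehog ligands that was first known as a growth arrest gene, gave 748, 827, 1224 and 1154 normalized reads in wild-type libraries, and 671, 735, 162 and 367 in mfn2-/- libraries. The groups did not overlap, but mfn2-/- replicates 1 and 2 lay just under the lower wild-type libraries while replicates 3 and 4 lay well below. The log2 change was -1.22 (SE 0.40, 95% interval -2.08 to -0.36) and the limma adjusted p was 0.0706. The call depended on the setting: Gas1 was called in 6 of 21 settings, among them those without mfn2-/- replicate 1 (adjusted p = 0.0492) or replicate 2 (0.0394) and with a term for Y-linked reads (0.0115). Without mfn2-/- replicate 3 its log2 change was -0.77 (adjusted p = 0.134). Gas1 lies on chromosome 13, 60174405 to 60177365, minus strand, and shares exon bases with Gm48488 on the opposite strand.

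Of the list of Ly6 and GPI-anchored surface genes, 10 were tested, of which 3 fell and 1 rose. Gpc3, a glypican that binds Hedgehog and other ligands, went from 2076 ± 860 to 63.1 ± 83.7 normalized reads (by -5.84 on the log2 scale, adjusted p = 0.00016). Nt5e, the surface nucleotidase CD73, had a log2 change of -3.14, and the glypican gene Gpc6 one of -2.91. Cd24a, a small anchored adhesion protein, rose from 124 ± 14.5 to 1110 ± 129 (3.15, adjusted p = 8.48e-07). Of the Hedgehog pathway genes beside Gas1, 0 of 10 tested were called. The co-receptor genes Cdon and Boc, which share the ligand with GAS1, stood at 834 ± 294 and 463 ± 93.3 normalized reads in wild-type libraries, and at 989 ± 42.98 and 499 ± 101 in mfn2-/- libraries. Of the 4 tested genes of the GDNF receptors, to which GAS1 is related in structure, Gfra1 (-1.66, adjusted p = 0.0119) and Gfra2 (-3.96, adjusted p = 0.0123) fell, and their signaling partner Ret was not called (-1.83, adjusted p = 0.0506).

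The surface protease FAP cleaves peptides after proline and is made by activated fibroblasts. Fap gave 109, 352, 328 and 238 normalized reads in wild-type libraries, and 7.33, 26.9, 12.5 and 0 in mfn2-/- libraries. Wild-type replicate 1, the shallowest library, was the lowest of its group, yet lay above every mfn2-/- value. The mean was 22.0-fold lower and the log2 change was -4.97 (SE 0.98, 95% interval -7.08 to -2.87, adjusted p = 0.00597). Fap lies on chromosome 2, 62500943 to 62574075, minus strand. Dpp4, the closest relative of Fap and itself a marker of a subset of these progenitors, fell from 119 ± 30.7 to 1.29 ± 2.58 normalized reads (-6.21, adjusted p = 0.00227), with 0 in 3 of the 4 mfn2-/- libraries. Plaur, the urokinase receptor that acts beside FAP at the cell surface, rose from 100 ± 68.9 to 646 ± 305 (2.80, adjusted p = 0.00112), and the other 5 genes of this list were not called.

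Cd248 encodes endosialin, a C-type lectin of fibroblasts and pericytes. It gave 79.6, 156, 96.4 and 122 normalized reads in wild-type libraries, and 7.33, 8.69, 19.2 and 0 in mfn2-/- libraries. The groups were far apart, but the mfn2-/- values rested on 0 to 26 reads. The mean was 12.9-fold lower and the log2 change was -4.12 (SE 1.01, 95% interval -6.31 to -1.94, adjusted p = 0.0206). This call was lost without wild-type replicate 2 (adjusted p = 0.0681), replicate 3 (0.0653) or replicate 4 (0.0715), and with a pseudocount of 0.1 (0.0785). Cd248 lies on chromosome 19, 5068078 to 5070682, plus strand. Among 5 relatives and ligands, Clec14a fell from 101 ± 25.99 to 12.8 ± 16.4 (-4.03, adjusted p = 0.0403), while Cd93 (0.08) and Thbd (0.44) were not called.

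Gsn encodes gelsolin, which severs and caps actin filaments inside the cell and has a secreted form. It was the member with the most reads, at 23336, 21603, 13572 and 12228 normalized reads in wild-type libraries, and 6551, 6312, 4060 and 4259 in mfn2-/- libraries. Every wild-type library was above every mfn2-/- library, and within each genotype replicates 1 and 2 were higher than replicates 3 and 4. Gsn fell 3.34-fold in the mean, with a log2 change of -1.72 (SE 0.27, 95% interval -2.29 to -1.14, adjusted p = 0.00119). It lies on chromosome 2, 35256380 to 35307892, plus strand, and 2 of its 3 starts have the E-box described with the printed sequence. Among 9 tested genes of the gelsolin family and of actin severing, Svil, which encodes the membrane-linked relative supervillin, fell from 1178 ± 110 to 229 ± 46.9 normalized reads (-2.38, adjusted p = 1.32e-05), Cfl2, the muscle cofilin, rose (1.12, adjusted p = 0.0364), and 7 were not called.

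Islr encodes a protein of the immunoglobulin superfamily with leucine-rich repeats, also known as meflin. Its values were 907, 764, 771 and 743 normalized reads in wild-type libraries, and 10.001, 11.9, 16.2 and 64.1 in mfn2-/- libraries. Wild-type libraries were close together, and mfn2-/- replicate 4 was several times the other 3 although Pdgfra, Fap and Cd248 had 0 reads in it. The mean was 31.2-fold lower and the log2 change was -5.32 (SE 0.51, 95% interval -6.43 to -4.21, adjusted p = 2.58e-05). Islr lies on chromosome 9, 58156268 to 58204306, minus strand, and shares exon bases with Islr2 on the same strand, which had 0 to 22.8 normalized reads in any library. Of 4 tested relatives, Lrig1 rose (0.97, adjusted p = 0.0139) and 3 were not called.

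**Figure D2:**
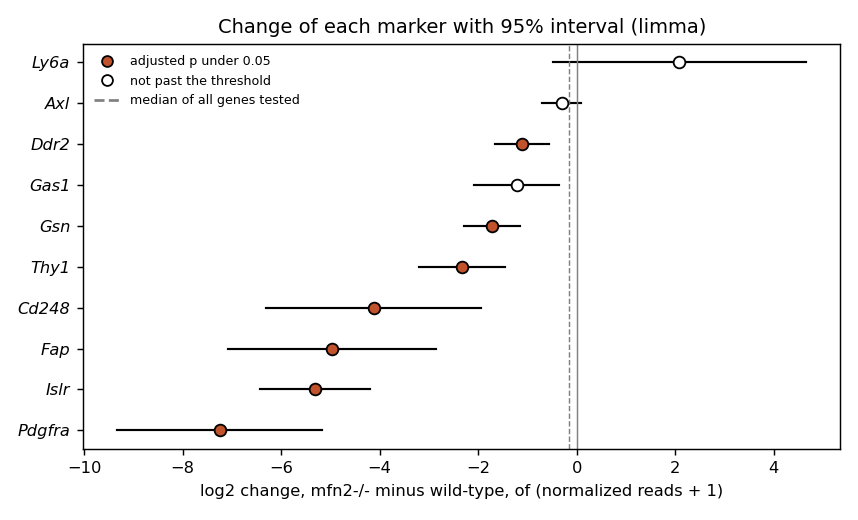
Difference of log2(value + 1) between mfn2-/- and wild-type libraries for each of the 10 genes, with its 95% interval from limma (4 libraries per group), filled where limma called it, and a dashed line at the median of all genes tested. Pdgfra is at -7.25 and Axl at -0.31, and the intervals of Axl and Ly6a cross 0.

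Because the markers are often read together, their levels were compared per kilobase of exon. In wild-type ASCs, Gsn stood at 5602 ± 1773 normalized reads per kb, above every other member. Gas1 (334 ± 79.7), Axl (304 ± 23.5), Islr (296 ± 27.9) and Pdgfra (252 ± 69.3) followed with overlapping ranges, then Ddr2 (124 ± 21.7) and Thy1 (81.8 ± 7.15), whose ranges lay apart, then Fap (45.4 ± 19.4) and Cd248 (43.5 ± 12.7), which overlapped, and Ly6a (9.67 ± 9.45). Pax7 stood at 113 ± 7.83 per kb in the same libraries, under the lowest Pdgfra value of 191.

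In mfn2-/- libraries the order of levels per kb was different. Gsn (1677 ± 418) was followed by Axl (248 ± 48.99), Gas1 (163 ± 90.4), Ddr2 (59.5 ± 19.4) and Ly6a (28.5 ± 14.96). Thy1 was at 16.8 ± 5.48, Islr at 9.51 ± 9.63, Cd248 at 3.38 ± 3.03, Pdgfra at 3.19 ± 2.64 and Fap at 2.06 ± 2.00. From Axl to Fap, each gene overlapped in range with the next in this order. Pdgfra, at 0 to 6.47 per kb, was now below Pax7, at 99.3 to 137. The 10 genes took 0.484% to 0.721% of the total in wild-type and 0.149% to 0.225% in mfn2-/- libraries, and without Gsn 0.175% to 0.198% and 0.0465% to 0.0690%.

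The level of each marker was also set against that of Pdgfra within every library, as a log2 ratio. Pdgfra was taken as the reference after its values were seen. It is the member with the largest decrease, which fixes the sign of every shift. Each shift restates the difference between the log2 changes of the gene and of Pdgfra, so the ratios are a description with no test. From wild-type to mfn2-/- libraries the mean ratio shifted by 1.93 for Islr, 2.27 for Fap, 3.12 for Cd248, 4.92 for Thy1, 5.53 for Gsn, 6.02 for Gas1, 6.13 for Ddr2, 6.94 for Axl and 9.33 for Ly6a. In mfn2-/- replicate 4 Pdgfra had 0 reads, as had Fap and Cd248, whose ratios there are 0 through the pseudocount. Without that library the shift was 0.02 for Islr, 1.90 for Fap, 2.67 for Cd248 and 3.47 for Thy1, and between 4.28 and 7.78 for the other 5. The ratio of Islr ran from -2.18 to -1.37 in wild-type and from -1.94 to 6.03 in mfn2-/- libraries.

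The 10 genes were also compared between the kinds of library with and without Y-linked reads, of which each genotype held 2 each. Pdgfra had a log2 change of -5.95 in libraries with and -8.54 in libraries without these reads, Fap -4.20 and -5.74, Cd248 -3.60 and -4.64, Thy1 -2.10 and -2.56, Ddr2 -0.77 and -1.46, Gas1 -0.76 and -1.69, and Islr -5.99 and -4.64. All 7 called genes were lower within both kinds, which had to follow because the genotypes did not overlap for any of them. For Gsn alone among the 10 genes the interaction of genotype and kind was called, in a test with limma over all 11754 genes (1.47% called): the change was -1.002 (SE 0.11) with and -2.43 (SE 0.11) without Y-linked reads, a difference of 1.43 (SE 0.15, adjusted p = 0.00163). Because the libraries without Y-linked reads are replicates 1 and 2 of wild-type and replicates 3 and 4 of mfn2-/-, this interaction is the same contrast as replicates 1 and 2 against 3 and 4 over both genotypes. Gsn was higher in replicates 1 and 2 of each genotype, and a shift between these replicate sets and a genotype effect that depends on the kind of library cannot be told apart. The call held in 8 of 9 settings and was lost without the intensity trend (adjusted p = 0.370). The adjusted p of the other 9 genes ranged from 0.461 to 0.857, with 2 libraries in each cell of the design. Axl (-0.50 and -0.12) and Ly6a (0.90 and 3.26), which were not called between genotypes, kept their sign in both.

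**Figure D3:**
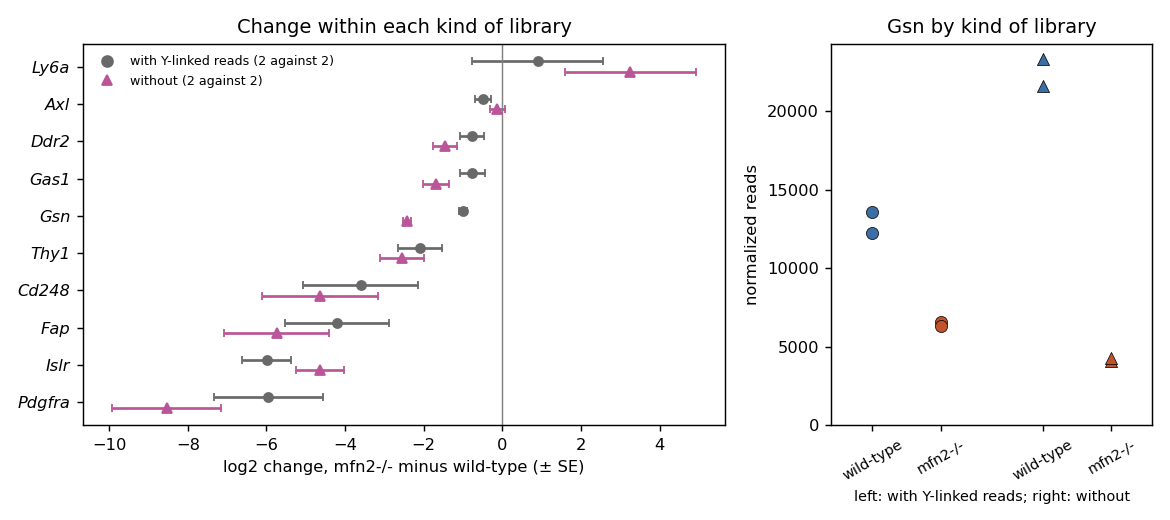
Left, difference of log2(value + 1) between mfn2-/- and wild-type for each of the 10 genes in libraries with (circles) and without (triangles) Y-linked reads, 2 per genotype in each, with bars of 1 SE. Right, normalized reads of Gsn in each library by genotype and kind, where the wild-type libraries without Y-linked reads are the highest and the mfn2-/- libraries without them the lowest.

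The genes whose level followed Pdgfra most closely over the 8 libraries were named by their likeness among the 5577 genes whose mean reached 100, measured as the correlation of log2(value + 1). They were Ptgs2 (r = 0.998), the inducible cyclooxygenase, C1s (0.996), a complement protease, Smoc2 (0.994), a secreted calcium-binding protein, Leprel2 (0.989), a collagen prolyl hydroxylase, and Pcsk6 (0.989), a proprotein convertase. Smoc2 was at 5778 ± 1059 normalized reads in wild-type libraries, and 30.4 ± 20.5 in mfn2-/- libraries, and Ptgs2 at 571 ± 147 and 12.2 ± 8.27. These correlations hold the genotype difference and the 0 of mfn2-/- replicate 4, and are given as a description.

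Other genes of mesenchymal cells, including the matrix genes Dpt and Ltbp4, were counted to set the 10 genes beside them. Of 27 tested, among them Cd34 and Nt5e, 14 fell, 1 rose and 12 were not called, with a median log2 change of -1.90. Those with the largest changes were Cxcl14 (a chemokine, 1974 ± 222 to 42.1 ± 32.2 normalized reads), Clec3b (tetranectin, 513 ± 99.4 to 15.2 ± 20.2), Sema3c (a guidance cue, 747 ± 241 to 15.8 ± 20.8) and Pi16 (a marker of stem-like fibroblasts, 164 ± 39.2 to 2.67 ± 5.33), with log2 changes of -6.61, -6.56, -6.48 and -6.46.

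**Figure D4:**
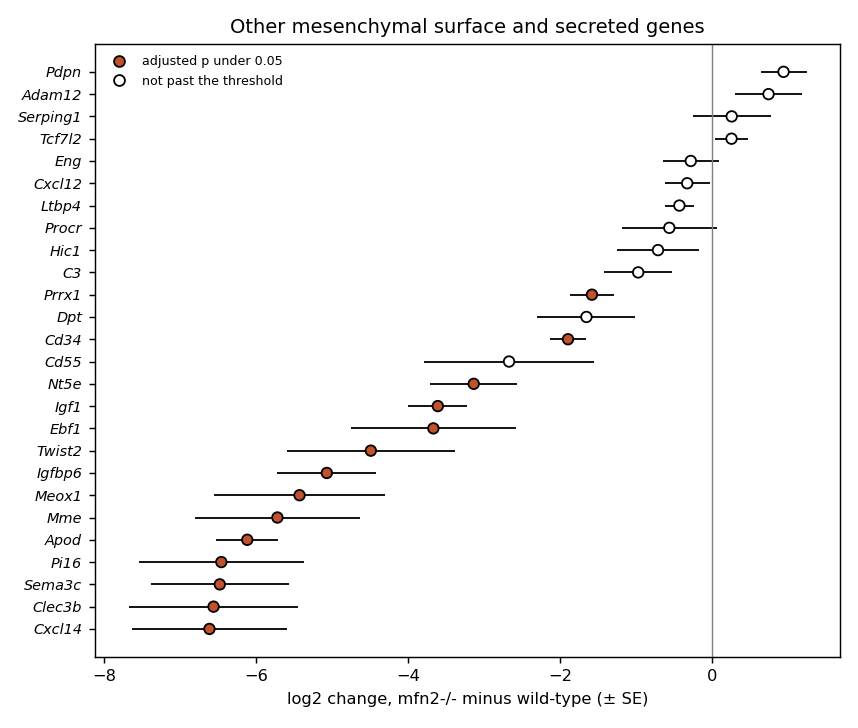
Difference of log2(value + 1) between mfn2-/- and wild-type for the other mesenchymal genes that fell (14, filled) or were not called (12, open), with bars of 1 SE (4 libraries per group). The filled points lie below 0, with Cxcl14 the lowest at -6.61, and the gene that rose is not shown.

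Markers of other cell types that the sort could hold were followed in the same libraries, and their part in the decreases was not tested. Tenocyte markers moved with the members: 10 of 12 fell, with a median log2 change of -8.37, and their summed level went from 68377 to 86573 normalized reads in wild-type to 12492 to 45627 in mfn2-/- libraries, or from 40854 to 65653 to 341 to 555 without the immediate early gene Egr1. Tnmd, the defining gene of tendon cells, was at 1517 to 4130 normalized reads in wild-type libraries, and at 0 to 20.003 in mfn2-/- libraries. Of 9 tested mural cell markers 3 fell (Cspg4, Pdgfrb and Mcam) and 1 rose (Abcc9), with sums of 4257 to 5434 and 2652 to 4280, and of 7 tested Schwann cell markers 1 fell (Ngfr), with sums of 2454 to 3912 and 1817 to 2476. Of 15 muscle stem cell identity genes 0 fell and 4 rose, among them Myod1 (172 ± 56.6 to 828 ± 110), with a median of 0.07.

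No gene of the blood and endothelial lists was called lower, while Cd34, Mcam and Clec14a, which fell, were counted in other lists. None of 12 endothelial markers was called, with sums of 1510 to 3139 and 2023 to 3456, nor were any of 6 tested macrophage markers, with sums over the list of 60.9 to 164 and 130 to 233 and Ptprc at 0 to 1.60 and 0 to 15.01. The 6 neutrophil and 7 lymphocyte markers in the table were too low to be tested, with sums of at most 46.4 and 38.7 normalized reads in any library. Of 11 tested myofiber markers 2 rose, Myh1 and Myh4, with sums of 1026 to 2904 and 2840 to 3922.

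**Figure D5:**
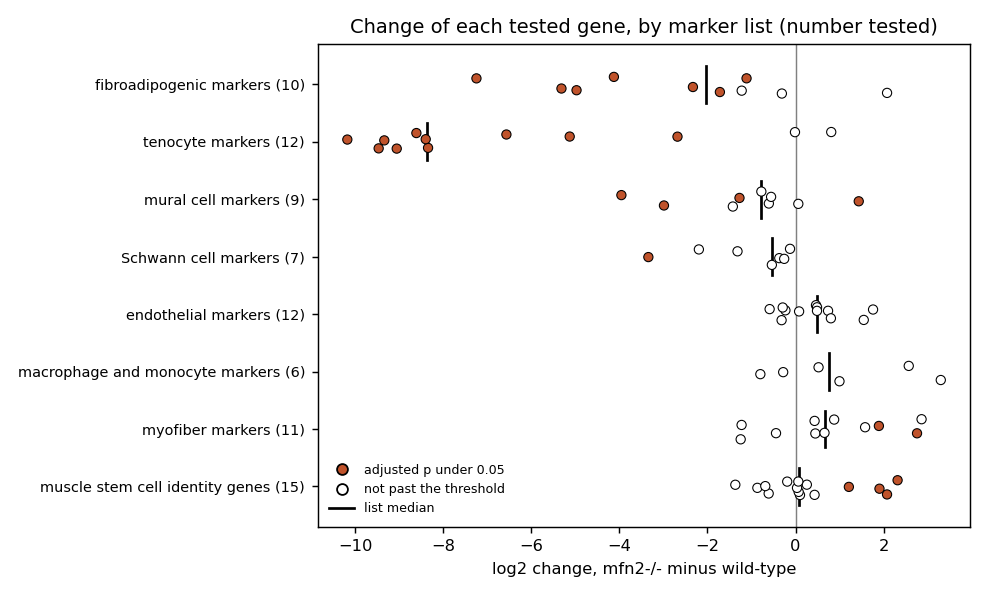
Difference of log2(value + 1) between mfn2-/- and wild-type for every tested gene of 8 marker lists, a point per gene, filled where limma called it, with a bar at the median of each list and the number tested in parentheses. The tenocyte median of -8.37 is the lowest and the fibroadipogenic one is -2.02, while the endothelial median is 0.48.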

How the data were processed

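The libraries had been prepared from total RNA with a stranded kit for small inputs. Per the submitters' processing notes, the tools were Trim Galore, HISAT2, featureCounts and DESeq2 with build mm9. Versions, annotation and the treatment of strand and of reads matching several genes are not given in the sources used here, which bears on overlapping genes and on Ly6a. The deposited table gives 1 signal value per gene and library, on a linear scale, for which the authors had divided read counts by a size factor of the library. Dividing by the smallest step returned whole reads for 100% of values in each library (tolerance 0.02). A gene was at the floor at 3 reads or fewer. Floors cover counting error only, while the intervals come from limma and rest on the spread between libraries.

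Genes with a mean of at least 10 (11754, with all 10 members) were tested with limma 3.58.1 (R 4.3.3) on log2(value + 1). The fit had an intensity trend, and tests were two-sided with Benjamini-Hochberg adjustment at 0.05. Changes of genes with values near 0 depend on the pseudocount: that of Pdgfra was -8.10 with 0.1 and -6.20 with 10. Its log2 change of -7.25 in limma was larger in size than the -6.11 of edgeR and the -6.29 of DESeq2. Single values were compared by exact permutation over 70 arrangements of 4 against 4. Each result was recomputed with a pseudocount of 0.1 or 10, a filter at a mean of 50 or none, equal totals, upper-quartile and quantile scaling, the replicate block, a term for Y-linked reads, no trend, library weights, an adjusted p under 0.01, each library left out, and, from the recovered reads, DESeq2 1.42.0 and the quasi-likelihood test of edgeR 4.0.16 with TMM factors. The tests were checked on simulated counts. Members, lists and tests were chosen with earlier results of these data known, and the ratios to Pdgfra, which were not tested, after the values had been seen. Named were all members, Mfn2, Cd34 and Hif1a, relatives and ligands of members, up to 4 called genes per list with the largest change and a mean of at least 50, and the 5 genes most like Pdgfra. Coordinates are from GENCODE M21 (GRCm38), since the table has none, and per-kb levels use the union of exons there. Promoters are from RefSeq (GRCm38.p6). Tables and figures were made in Python 3.11.15. The mesenchymal gene that rose is counted but not reported here by name or value.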

Additional observations from a re-analysis of the deposited data

Results flagged for a closer look

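In 3 of 26 groups of 4 libraries examined, 1 library lay far from the rest, where chance gives about 1.3 such groups. Axl had 1614 normalized reads in mfn2-/- replicate 3, against 1079 to 1148 in the other mfn2-/- libraries. Islr had 64.1 in mfn2-/- replicate 4, against 10.001 to 16.2 in the others, which came from 35 reads and from 15 to 22 reads. Cd34 had 700.02 in the same library, against 359 to 383 in the others.

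The interaction of genotype and presence of Y-linked reads was 1.43 on the log2 scale for Gsn (limma adjusted p = 0.00163). The same contrast compares replicates 1 and 2 with replicates 3 and 4 over both genotypes, so a genotype effect that depends on the kind of library and a plain shift between these replicate sets cannot be told apart. Each of the 4 combinations of genotype and kind of library held 2 libraries.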

How the results depend on the processing

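The number of members called ranged from 5 (adjusted p under 0.01) to 9 (library weights) over 22 settings, and from 6 to 8 with 1 library left out. Pdgfra, Thy1, Fap, Gsn and Islr were called in all 21 settings in which their test was repeated, Ddr2 in 20, Cd248 in 17, Gas1 in 6 and Axl in 1 (library weights, adjusted p 0.0490). Ly6a was called in 0 of 20, and no member changed direction. Over the whole table, 1217 genes were called, 633 without the trend, 3037 with library weights, 498 at an adjusted p under 0.01, and 671 (without wild-type replicate 3) to 1331 with 1 library left out, with 749 without wild-type replicate 4. The interaction of Gsn was the only one among the members, and without the trend 0 were called. The median of the members was -2.33 at a mean of at least 50, where Ly6a was not tested, -1.77 with library weights, and -2.14 to -1.83 with 1 library left out. Mfn2 was called with library weights (-0.87, adjusted p 0.0099), and had changes of -1.04 to -0.80 with 1 library left out. The causes were not tested. The median over all genes shifted by 0.21 with upper-quartile scaling, 0.29 with quantile scaling and 0.11 with edgeR, and 38.5% of calls were higher, but 57.5% with upper-quartile scaling and 17.9% without the trend. With the replicate block 7 members and 1043 genes were called. Libraries with the same number had correlations of deviations of -0.11 to 0.04, and those with different numbers of -0.06 to 0.12. These values showed no pairing by number, but so few pairs cannot exclude one. Depth limits genes with few reads, such as Ly6a in wild-type libraries (0 to 26 reads). In mfn2-/- libraries it limits Fap (0 to 34 reads), Cd248 (0 to 26) and Islr (15 to 35). Pdgfra had 0 reads in mfn2-/- replicate 4 and 40 to 88 in the other mfn2-/- libraries.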

Other observations

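Genes of the Hedgehog pathway beside Gas1 differed in how mfn2-/- replicate 4 stood to the other libraries. Gli1, a transcription factor and target of the pathway, was at 115, 108, 72.95 and 1.83 normalized reads in the mfn2-/- libraries and at 65.95 to 253 in wild-type libraries. Ptch1, the Hedgehog receptor, was at 209, 150, 112 and 22.0 against 176 to 262, and Smo, the signal transducer, at 326, 295, 216 and 65.97 against 316 to 661. In contrast Gli2, a transcription factor of the pathway, was at 429 in this library, the highest of all 8 (wild-type 224 to 355, other mfn2-/- libraries 137 to 370.05), and Gli3 was at 213, above the 60.04 to 114 of the other mfn2-/- libraries. The limma adjusted p of the genotype difference was 0.316 for Gli1, 0.243 for Ptch1, 0.0828 for Smo, 0.969 for Gli2 and 0.545 for Gli3. Serping1, which encodes the inhibitor of complement C1, had its highest value in that library, at 5307 normalized reads against 710, 760 and 1721 in the other mfn2-/- libraries and 783 to 1838 in wild-type libraries (adjusted p = 0.803). These genes were named after their values were seen, and the library also had the fewest genes with a read.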
